A study of Mus musculus with 12 samples.

Results

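Complex I, the NADH:ubiquinone oxidoreductase of the mitochondrial inner membrane, is the entry point for most electrons into the respiratory chain. Its matrix arm takes electrons from NADH at a flavin and passes them along iron-sulfur clusters to ubiquinone, and its membrane arm pumps protons. The beating heart depends on it heavily, and cardiomyocytes are among the cells richest in it. Nuclear genes named Ndufv, Ndufs, Ndufa, Ndufb and Ndufc encode its core and accessory subunits, genes named Ndufaf encode assembly factors that build the complex and then leave it, and the core of the membrane arm is encoded in mitochondrial DNA.

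The members described here are the rows of the deposited gene table whose symbol begins with Nduf and that hold at least 1 TPM (a transcript level scaled by gene length and library total) in at least 3 of the 12 libraries. All 45 rows with that prefix met the level criterion, out of 18530 rows in the table. They comprise 3 Ndufv, 8 Ndufs, 15 Ndufa (Ndufab1 included), 10 Ndufb and 2 Ndufc genes, which make 38 subunit genes, and 7 Ndufaf genes. All 45 passed the filter of the fit, which tested 12798 genes. The mitochondrially encoded subunits and Ndufb1 were not analysed here. Ndufaf8 stands in the table under the older symbol 1810043H04Rik and so lies outside the rule.

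The libraries hold poly-A RNA of isolated mouse cardiomyocytes. Both genotypes carry the mdx allele, a premature stop in the dystrophin gene Dmd, and mdx:Utrn+/- mice also carry a single working copy of Utrn, which encodes the dystrophin homolog utrophin. There is no wild-type group, so no value here compares dystrophic with healthy cells. Animals of either genotype received saline or PB1046, a long-acting analog of vasoactive intestinal peptide, every other day between 4 and 12 weeks of age, and hearts were collected at 14 weeks. The protocol gives 0.75 and 1.5 mg/kg, and the treated libraries, labelled as high dose, are read here as 1.5 mg/kg. Genotype and treatment give 4 groups of 3 libraries each. Nothing in the labels says that the 3 came from separate mice, so p-values measure the spread between these libraries.

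Libraries held 7234100 to 25458191 reads, recovered from the steps of the TPM values. Utrn followed the genotype label under saline, at 9.53 ± 1.45 scaled TPM in mdx and 5.76 ± 1.68 in mdx:Utrn+/- (SD, n = 3 each), with no overlap. Under PB1046 it was 11.3 ± 4.13 and 6.74 ± 1.56, and the ranges overlapped. The 9 cardiomyocyte markers were above 0 in every library. In bulk RNA, fewer cardiomyocytes and less complex I mRNA per cardiomyocyte cannot be told apart. Values below are scaled TPM, the deposited TPM divided by a trimmed-mean factor per library (0.8283 to 1.309), unless deposited TPM is named.

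Complex I transcripts were among the most abundant mRNAs of these cells. Together the 45 genes made up 4.495% to 6.85% of the deposited TPM of a library, 37 of them ranked among the 500 most abundant genes and 13 among the first 100. By mean deposited TPM over the 12 libraries the highest was Ndufa4 (6498), a protein now counted with cytochrome c oxidase rather than complex I, followed by Ndufa3 (3894), Ndufa5 (3490), Ndufb10 (2942) and Ndufb9 (2840). The lowest were Ndufa4l2 (9.62), a hypoxia-induced relative of Ndufa4, and the assembly factors Ndufaf5 (15.3), Ndufaf7 (16.2), Ndufaf6 (24.3) and Ndufaf4 (42.8). Ndufaf5 hydroxylates an arginine of Ndufs7, whereas Ndufaf3 and Ndufaf4 act in the assembly of the ubiquinone-binding part.

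Neighbours in the order of levels mostly overlapped over the libraries, and a single step separated them. Ndufs1, with 289.5 deposited TPM the lowest subunit other than Ndufa4l2, lay above Ndufaf1 (66.5), the highest assembly factor, in all 12 libraries and without overlap. Subunits of the membrane arm had a median of 1423 deposited TPM (19 genes), those of the matrix arm 836.4 (16 genes), the 7 nuclear core subunits 805.7, and the 7 Ndufaf genes 42.8. Levels within the Ndufb genes, accessory subunits of the proton-pumping arm, differed 3.30-fold between the lowest and the highest, and levels within the Ndufs genes 9.56-fold. The transcripts are short: the median length behind the TPM was 800 bases, against 2790 for all genes tested.

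**Figure D1:**
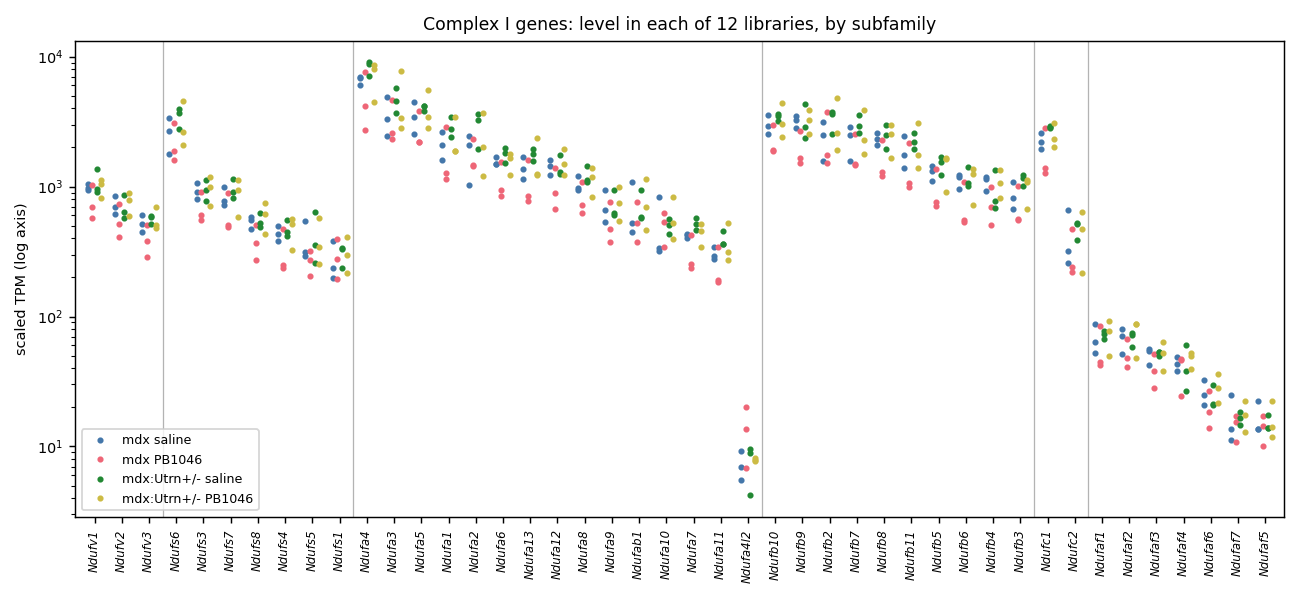
Scaled TPM (log axis) of 44 complex I genes in each of 12 libraries, by subfamily and coloured by group, 1 point per library. The 7 Ndufaf genes and Ndufa4l2 lie under 100 in every library, below all points of the other genes shown.

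Promoters of part of these genes hold sequence words that the rule did not use. RefSeq windows of 300 bases (GRCm38.p6, 250 before to 50 after the annotated start) were matched for 39 of the 45 members. Those without a window include Ndufa2, Ndufa4l2, Ndufaf6, Ndufb9 and Ndufs1. Short words of 4 factors linked to mitochondrial genes were searched on both strands. The NRF1 word GCATGCGC was in 5 of 39 windows (12.8%, against 3.05% of 27025 genes with a window). The YY1 word AAGATGGC was in 7 (17.9%, against 3.19%), the ETS or GABPA word CCGGAAG in 5 (12.8%, against 9.93%) and the ERR word AAGGTCA in 3 (7.69%, against 5.38%). The ETS and ERR shares were close to those over all genes. At least 1 of the 4 words was in 20 of 39 windows (51.3%), against 19.7% of all genes. A word is a match of letters and not a shown binding site, and its absence says nothing of the factor.

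A link between a word and the response to PB1046 was not tested. For each word, the window of the member that differed most between PB1046 and saline in mdx among those holding it is shown. All 4 lie on the minus strand and are written 5′ to 3′ along the gene, with the word in capitals. Ndufa6, an accessory subunit of the matrix arm, has its NRF1 word 83 bases before the start (chr15:82354242-82354541). Ndufb6 has an ETS word on the opposite strand, written as its reverse complement, 232 bases before the start (chr4:40279372-40279671). Ndufb8 has its YY1 word 38 bases after the start (chr19:44555393-44555692), and Ndufb4 its ERR word 55 bases before it (chr16:37654319-37654618).
Ndufa6: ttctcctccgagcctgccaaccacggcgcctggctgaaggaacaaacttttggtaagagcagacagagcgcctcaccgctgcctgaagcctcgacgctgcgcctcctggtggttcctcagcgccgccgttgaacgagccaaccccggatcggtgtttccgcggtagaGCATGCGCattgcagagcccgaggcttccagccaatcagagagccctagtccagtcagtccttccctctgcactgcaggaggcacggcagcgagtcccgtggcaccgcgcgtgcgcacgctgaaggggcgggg
Ndufb6: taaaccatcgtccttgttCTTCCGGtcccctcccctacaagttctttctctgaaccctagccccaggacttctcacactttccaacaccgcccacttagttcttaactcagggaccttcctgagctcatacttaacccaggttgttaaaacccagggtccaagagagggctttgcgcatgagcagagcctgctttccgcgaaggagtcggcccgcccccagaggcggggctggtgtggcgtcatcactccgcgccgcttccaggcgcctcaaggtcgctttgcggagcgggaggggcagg
Ndufb8: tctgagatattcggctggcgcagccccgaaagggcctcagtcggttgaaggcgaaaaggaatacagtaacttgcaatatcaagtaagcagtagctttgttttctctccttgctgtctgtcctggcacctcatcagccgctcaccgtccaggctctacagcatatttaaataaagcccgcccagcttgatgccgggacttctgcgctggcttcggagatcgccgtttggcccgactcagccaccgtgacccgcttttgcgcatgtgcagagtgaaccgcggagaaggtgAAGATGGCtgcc
Ndufb4: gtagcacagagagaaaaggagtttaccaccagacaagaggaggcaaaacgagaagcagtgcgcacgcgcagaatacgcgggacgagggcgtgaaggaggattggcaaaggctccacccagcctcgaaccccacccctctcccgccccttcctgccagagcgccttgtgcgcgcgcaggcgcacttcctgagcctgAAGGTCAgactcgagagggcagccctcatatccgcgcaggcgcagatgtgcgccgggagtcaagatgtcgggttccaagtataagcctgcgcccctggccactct

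The first comparison asked how complex I genes stood in mdx cardiomyocytes after PB1046. They were lower than in saline nearly throughout: 42 of 45 members had a negative log2 difference, with a median of -0.40, against a median of -0.003 and 49.5% positive over all 12798 genes. None passed the threshold, an adjusted p under 0.05 in limma with Benjamini-Hochberg adjustment over all genes tested. No gene outside the members did either (0.0% called), so no member changed by this test. At an unadjusted p under 0.05 there were 2 of 45 members, both lower, where 3.08% of all genes reached it. The groups did not overlap, with PB1046 lower, for 1 member (4.31% of all genes), and with PB1046 higher for 0 (4.0% of all genes). These counts are close to the share over all genes, and what the members had in common was the direction.

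Ndufb9, an accessory subunit of the membrane arm with a LYR motif (chr15:58933810-58939489, mm10), was 2810, 3258 and 3514 scaled TPM in the 3 mdx saline libraries and 2701.1, 1665 and 1512 in mdx PB1046. It was the member whose groups did not overlap, although PB1046 replicate 1 lay close under the lowest saline library. The log2 difference was -0.75 (95% interval -1.379 to -0.12, limma adjusted p = 0.999). In mdx:Utrn+/- it was 2850, 2383 and 4309 in saline and 3905, 2552 and 3264 in PB1046, within the same range. Ndufb6 (chr4:40270663-40279368), another small membrane-arm subunit, was 1217, 956.5 and 1190 in mdx saline and 1085, 536.9 and 556.9 in mdx PB1046. Replicates 2 and 3 were well under every saline library and replicate 1 was among them. Its log2 difference was -0.70 (95% interval -1.389 to -0.005, limma adjusted p = 0.999).

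By subfamily, all 10 Ndufb genes were lower (median -0.48, from -0.75 to Ndufb2 at -0.11), as were both Ndufc genes (Ndufc1 -0.38, Ndufc2 -0.37). All 3 Ndufv genes, which form the NADH-oxidising tip, were lower. Ndufv1, which binds the flavin, was 988.1 ± 55.3 in saline and 763.8 ± 234.4 in PB1046 (log2 -0.41). Ndufv2, an iron-sulfur protein, was 716.7 ± 115.5 and 552.8 ± 169.9 (log2 -0.41), and the accessory Ndufv3 was 522.0 ± 81.7 and 388.8 ± 108.9 (log2 -0.45). Of the 8 Ndufs genes 7 were lower (median -0.45). The iron-sulfur core subunit Ndufs8 was 537.5 ± 57.4 and 383.8 ± 119.2 (log2 -0.53), and Ndufs3 was 925.7 ± 129.4 and 685.7 ± 190.7 (log2 -0.46). Ndufs7, an iron-sulfur core subunit next to the ubiquinone site, differed by -0.44. The SD of the PB1046 group was above that of saline for each of these 6 genes.

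Ndufs1, the large iron-sulfur subunit of the NADH-oxidising part, was 383.0, 196.6 and 234.2 in mdx saline and 396.0, 274.9 and 195.4 in mdx PB1046 (log2 0.09). The groups overlapped fully, so this core subunit did not share the direction of the other 6. Among the 15 Ndufa genes 13 were lower (median -0.39). The lowest was Ndufa12 (chr10:94199009-94220948), a matrix-arm subunit related to Ndufaf2, at 1433, 1239 and 1600 in saline and 1381, 896.4 and 668.6 in PB1046 (log2 -0.59). Ndufa4 was 6977, 5998 and 6860 against 7574, 2740 and 4143 (log2 -0.58), and its PB1046 libraries held both the highest and the lowest of the 6 values. Ndufab1, the mitochondrial acyl carrier protein, which also serves fatty acid and lipoic acid synthesis, differed by -0.25. Ndufa10 was 495.4 ± 288.4 and 500.8 ± 141.6.

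Ndufa4l2 (chr10:127514939-127517156) went the other way. It was 6.93, 9.26 and 5.48 scaled TPM in mdx saline and 6.88, 13.6 and 20.2 in mdx PB1046. Its reads numbered 32 to 204 per library over the series. Replicates 2 and 3 were above all saline libraries and replicate 1 within them (log2 0.74, 95% interval -0.04 to 1.51, limma adjusted p = 0.999). These are the libraries in which most other members were low. In mdx:Utrn+/- it was 8.94, 9.60 and 4.23 in saline and 7.72, 7.86 and 8.08 in PB1046. The summed smooth muscle and pericyte markers were 248, 220 and 169 scaled TPM in mdx saline and 267, 297 and 336 in mdx PB1046. Which cells of the preparation held the Ndufa4l2 transcripts was not tested.

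All 7 assembly factors were lower with PB1046 in mdx (median -0.28, against -0.42 for the subunits). This order turned with the length and abundance trends removed (-0.21 against -0.16), and the difference was not tested. Ndufaf6 had the lowest value, at 32.5, 21.0 and 24.8 in saline and 26.9, 18.3 and 13.9 in PB1046 (log2 -0.41). Ndufaf7 stood nearest to 0 at -0.13. Of the 10 assembly factors without the prefix that were tested, such as Ecsit, Acad9 and Timmdc1, 2 were higher and 8 lower (median -0.15, none past the threshold). In complex II, the succinate dehydrogenase that feeds ubiquinone beside complex I, 3 of 6 tested genes were higher and 3 lower (median -0.06), with the iron-sulfur subunit Sdhb at -0.50 and the flavoprotein Sdha at 0.06. On deposited TPM both medians turned, to 0.009 for these assembly factors (5 of 10 higher) and 0.11 for complex II (4 of 6 higher). The median over all genes was then 0.14. With the trends removed the medians of the assembly factors and complex II were -0.10 and 0.04.

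**Figure D2:**
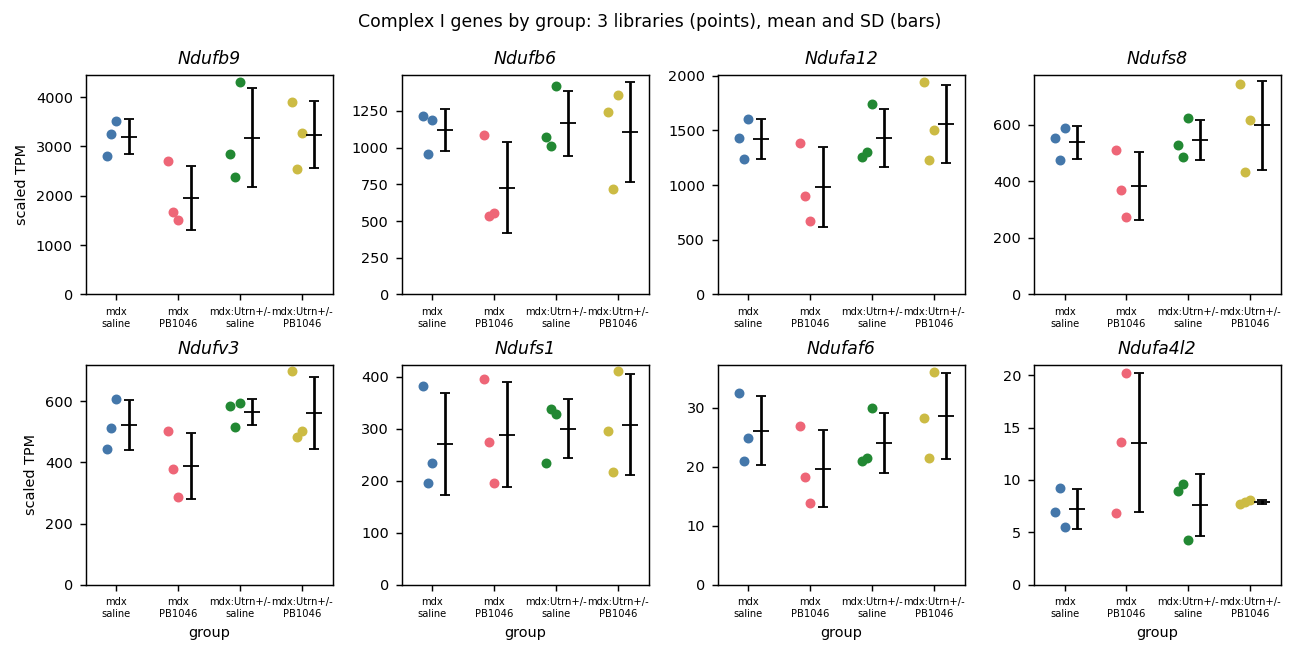
Scaled TPM of 8 complex I genes in the 4 groups, with 3 libraries as points and mean and SD as bars. In mdx PB1046 replicate 1, the leftmost point, lies near the saline libraries for Ndufb9, Ndufb6, Ndufa12, Ndufs8, Ndufv3 and Ndufaf6, replicates 2 and 3 lie lower, and Ndufa4l2 shows the opposite order.

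The lower values came from 2 of the 3 mdx PB1046 libraries. In replicate 1, 41 of 45 members were above their own mean over the 12 libraries (median deviation 0.16 on the log2 scale). In replicate 2 only 4 were above it (-0.53) and in replicate 3 only 1 (-0.72). Replicate 3 held the lowest of the 12 values for 31 members and replicate 2 for 10. The sum over the 45 genes was 64350 scaled TPM in replicate 1, within the mdx saline range of 53550 to 65070, and 35400 and 34340 in replicates 2 and 3. Without replicate 1 the median log2 difference was -0.65, and without replicate 3 it was -0.23. No member passed the adjusted threshold in either fit. On scaled TPM another low library was mdx:Utrn+/- PB1046 replicate 2, in which 0 of 45 members were above their mean (median deviation -0.27). In mdx saline replicate 2 there were 8 (-0.10), and in the other 8 libraries 31 to 43. The counts changed with the scaling. On deposited TPM 9 members were above their mean in mdx PB1046 replicate 2 (-0.19) and 1 in replicate 3 (-0.33). In mdx:Utrn+/- PB1046 replicate 2 there were 21 (-0.03). With length and abundance trends removed the same libraries had, in this order, 14 (-0.08), 5 (-0.21) and 24 (0.01).

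Other measures moved with these libraries. The summed cardiomyocyte markers were 131000, 83100 and 68500 scaled TPM in mdx PB1046, 106000 to 119000 in mdx saline, 130000 to 143000 in mdx:Utrn+/- saline and 145000, 98100 and 126000 in mdx:Utrn+/- PB1046. On scaled TPM they were thus lowest in the 3 libraries in which complex I genes were lowest. Both were divided by the same factors, which were largest in these libraries (1.271, 1.309 and 1.182), so the scaling itself lowered both there. The endothelial score, the mean centred log2 level of 8 endothelial markers, was 0.38 and 1.08 in mdx PB1046 replicates 2 and 3 and 1.04 in mdx:Utrn+/- PB1046 replicate 2. It was also 0.72 in mdx saline replicate 3, where 32 members were above their mean, and -0.91 to 0.24 in the remaining 8. With that score as a term the median difference in mdx was -0.41. The 5 erythroid markers summed to 155, 58.0 and 838 scaled TPM in mdx PB1046 and to 18.9 to 91.1 in mdx saline. The 8 fibroblast markers summed to 403 to 727 against 220 to 766. The 9 macrophage markers summed to 132 to 412 against 83.5 to 392. The 8 smooth muscle and pericyte markers summed to 267 to 336 against 169 to 248, without overlap. Fitted log2 differences in mdx were above 0 for all erythroid and macrophage markers. The same held for fibroblast markers but Postn (-0.43) and smooth muscle and pericyte markers but Myh11 (-0.16). Cardiomyocyte markers but Pln (0.10) and endothelial markers but Cldn5 (0.68) were below 0. No marker passed the threshold. No marker of these lists was at 0 in any library, and apart from the fit with the endothelial score their part in the result was not tested.

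Scaling set the size of the difference but not its sign. On deposited TPM without the factors the median over members was -0.24 (6 higher, 39 lower), while the median over all genes was 0.14. The members then made up 5.93% ± 0.61 of deposited TPM in mdx saline and 4.99% ± 0.85 in mdx PB1046. With trends over gene length and abundance removed from each library the median was -0.17, with 13 members higher and 32 lower.

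**Figure D3:**
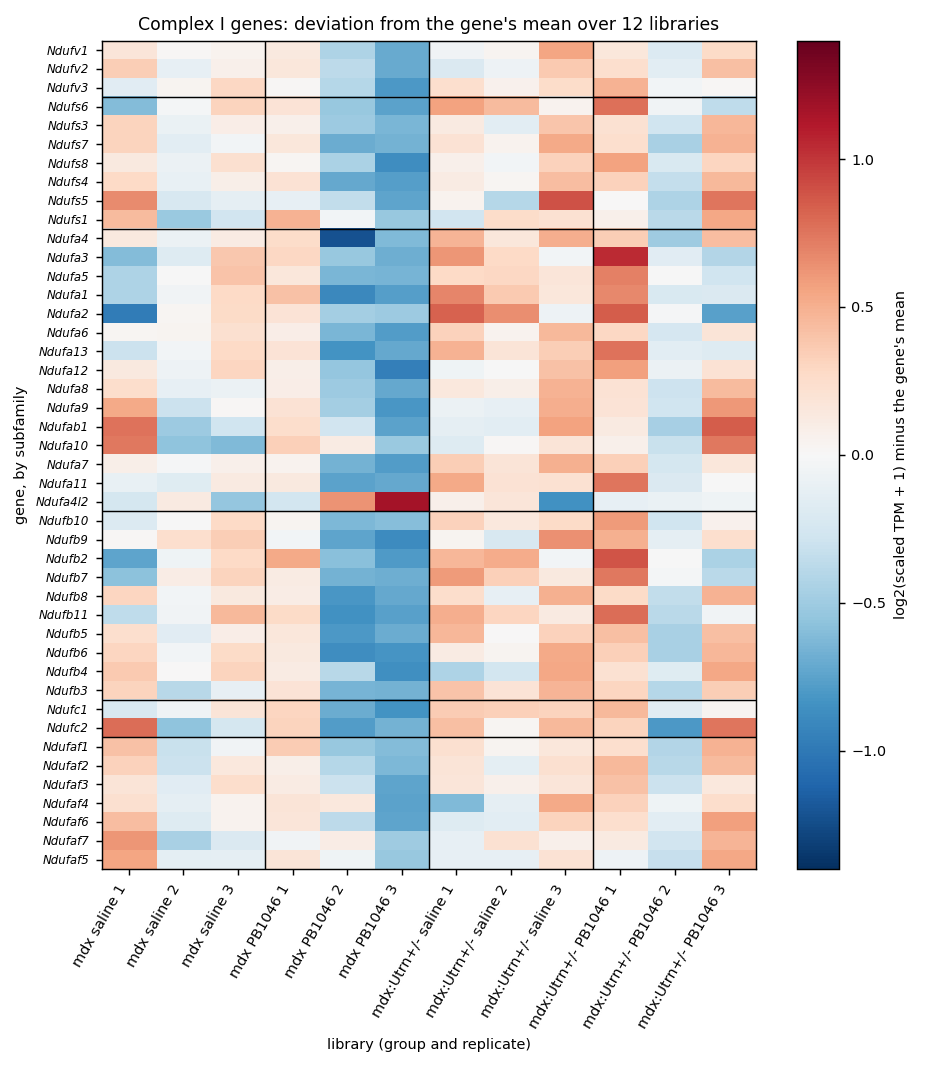
Deviation of log2(scaled TPM + 1) from each gene's mean over the 12 libraries, with 44 genes in rows by subfamily and the libraries in columns by group. The columns of mdx PB1046 replicates 2 and 3 are blue for nearly all genes, with Ndufa4l2 as the red exception, and mdx:Utrn+/- PB1046 replicate 2 is paler blue.

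In mdx:Utrn+/- cardiomyocytes PB1046 and saline differed little. Of 45 members 16 were higher and 29 lower, with a median log2 difference of -0.07, against -0.01 and 48.3% higher over all genes. None passed the threshold (0.0% of all genes), 0 reached an unadjusted p under 0.05 (1.96% of all genes), and 0 were separated from saline on either side (2.89% of all genes higher, 2.75% lower). The direction depended on the scaling. On deposited TPM 33 of 45 were higher with a median of 0.11, where 9187 of 12798 genes were higher (median 0.15). With the length and abundance trends removed 32 were higher (median 0.07), against 6293 of all genes (median -0.005). The turn on deposited TPM was thus not particular to the members. The extremes were Ndufa2, a matrix-arm subunit with a thioredoxin-like fold (log2 -0.44), and Ndufb4 (log2 0.25). Ndufa2 was 3632, 3228 and 1950 scaled TPM in saline and 3697, 2033 and 1210 in PB1046, and Ndufb4 was 680.7, 769.1 and 1334 against 1068, 814.8 and 1336. Both spread within each group as widely as between the groups. Core subunits lay between -0.17 and 0.14, and the Ndufaf genes between -0.05 and 0.24.

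Genotype was compared under saline and under PB1046. Under saline 38 of 45 members were higher in mdx:Utrn+/- than in mdx (median 0.15, against 0.03 over all genes). On deposited TPM 14 were higher (median -0.12), against 3306 of 12798 genes (median -0.20). With the trends removed 16 members were higher (median -0.07), against 6634 of all genes (median 0.01). No direction can be given for the members, since it turned with the scaling. None passed the threshold (0.0% of all genes) and 0 reached an unadjusted p under 0.05 (4.02% of all genes). The saline groups did not overlap for 4 members, all higher in mdx:Utrn+/- (5.5% of all genes on that side), and for 0 on the other (4.09%). These were Ndufa4, Ndufa7, Ndufa11 and Ndufc1. Ndufa7, of the matrix arm, was 429.2, 401.0 and 427.4 in mdx and 514.2, 461.8 and 572.5 in mdx:Utrn+/-, and Ndufc1, of the membrane arm, was 1959, 2184 and 2572 against 2908, 2854 and 2815. The extremes by fitted difference were Ndufa2 (0.70) and Ndufb4 (-0.28). The 3 Ndufv genes lay between -0.07 and 0.12, the 8 Ndufs genes between 0.02 and 0.46, and the Ndufaf genes between -0.12 and 0.12.

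Under PB1046, 44 of 45 members were higher in mdx:Utrn+/- than in mdx, with a median of 0.51 (0.01 over all genes). This comparison uses the same 3 mdx PB1046 libraries as the first one and is no second observation of their low values. None passed the threshold (0.0% of all genes), 5 members reached an unadjusted p under 0.05, all higher in mdx:Utrn+/- (1.66% of all genes in either direction), and the groups overlapped for all 45 (2.51% of all genes separated higher, 3.16% lower). On deposited TPM 41 of 45 were higher (median 0.26, against -0.20 over all genes). With the trends removed 40 were higher, with a median of 0.16. On scaled TPM all cardiomyocyte markers were higher in mdx:Utrn+/- too, from Pln at 0.05 to Tnni3 at 0.55. The direction was thus not particular to complex I genes. Marker levels of other cells lay apart in part of the lists, with no marker past the threshold. The smooth muscle and pericyte markers summed to 267 to 336 scaled TPM in mdx PB1046 and 208 to 246 in mdx:Utrn+/- PB1046, without overlap. The fibroblast markers summed to 403 to 727 against 250 to 463 and the macrophage markers to 132 to 412 against 121 to 189, with fitted log2 differences below 0 for 8 of 8 and 9 of 9 markers. The endothelial markers summed to 207 to 976 against 317 to 871 and the erythroid markers to 58.0 to 838 against 76.4 to 663. With the endothelial score as a term the median over members was 0.51, and the part of the other cells in this comparison was not tested.

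The 5 members were Ndufb9, Ndufa12, Ndufs8, Ndufa7 and Ndufv3, 4 of the matrix arm and 1 of the membrane arm. Ndufb9 differed by 0.75 (95% interval 0.12 to 1.384, limma adjusted p = 1). Ndufa12 was 1381, 896.4 and 668.6 scaled TPM in mdx PB1046 and 1945, 1234 and 1504 in mdx:Utrn+/- PB1046 (log2 0.71, 95% interval 0.09 to 1.322). Ndufs8 (chr19:3908863-3912774) was 510.2, 368.0 and 273.3 against 742.0, 432.5 and 615.7 (log2 0.65). Ndufv3 was 502.6, 378.3 and 285.6 against 698.8, 484.1 and 504.2 (log2 0.55). In each of them mdx PB1046 replicate 1 overlapped the mdx:Utrn+/- libraries, and replicates 2 and 3 lay below all 3.

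The subfamilies stood on the same side. All 10 Ndufb genes were higher in mdx:Utrn+/- PB1046 (median 0.57, with Ndufb2 lowest at 0.43), both Ndufc genes (Ndufc1 0.52, Ndufc2 0.46), all 3 Ndufv genes (Ndufv1 0.41, Ndufv2 0.48), and all 8 Ndufs genes (median 0.49). Core subunits ran from Ndufs1 at 0.10 over Ndufs3 and Ndufs7 at 0.49 each, to Ndufs8. Ndufa4 was 0.62 higher and Ndufab1 0.43. Of 15 Ndufa genes Ndufa4l2 alone was lower, at -0.60. The 7 Ndufaf genes were higher (median 0.37), from Ndufaf5 at 0.19 to Ndufaf6 at 0.53. On scaled TPM the 10 assembly factors without the prefix were higher too (median 0.30), and so were the 6 complex II genes (median 0.21). On deposited TPM the first had a median of 0.06 (8 of 10 higher) and complex II turned to -0.03 (2 of 6 higher), and with the trends removed they had 0.16 (10 of 10) and 0.03 (3 of 6).

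**Figure D4:**
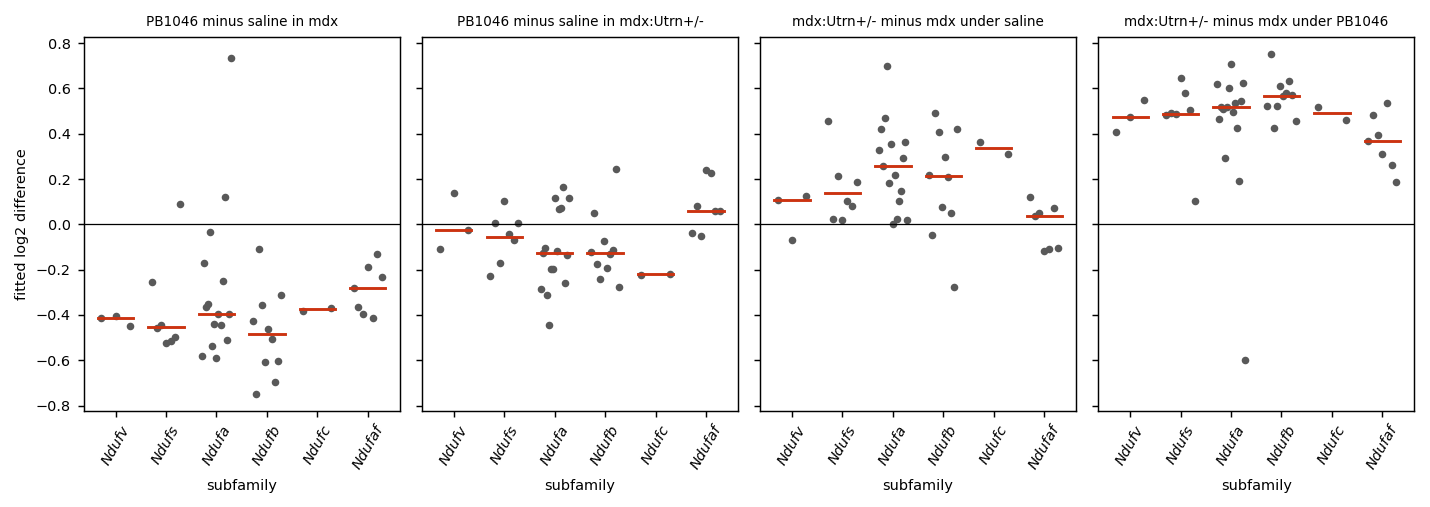
Fitted log2 differences of 44 members by subfamily in 4 comparisons, 1 point per gene with the median over the whole subfamily as a bar. Members lie mostly below 0 for PB1046 in mdx and above 0 between genotypes under PB1046, comparisons that share the mdx PB1046 libraries, and Ndufa4l2 is the outlying point in both.

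The difference between the PB1046 responses of the genotypes was tested directly. The response in mdx:Utrn+/- minus that in mdx was above 0 for 41 of 45 members (median 0.29, against -0.02 over all genes), no member or other gene passed the threshold (0.0% called), and 0 members reached an unadjusted p under 0.05 (2.25% of all genes). The highest was Ndufb4, 1083 ± 138.7 and 734.3 ± 246.0 scaled TPM in mdx saline and PB1046 and 928.0 ± 354.6 and 1073 ± 260.6 in mdx:Utrn+/-. Its difference was 0.85 (95% interval -0.12 to 1.82, limma adjusted p = 0.999). Ndufb9 (0.80), Ndufa12 (0.71), Ndufaf6 (0.64) and Ndufs8 (0.63) had the same direction, and Ndufa4l2 had -0.62. The 95% interval included 0 for all 45 members, which does not show that the responses were alike.

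A further pattern crossed the groups and was singled out after the values were seen. In mdx saline replicate 1 some members were far above and others far below the other 2 libraries of the group. In mdx:Utrn+/- PB1046 replicate 3 the same members deviated in the same direction from their own group. The deviations went together over the 45 genes with Pearson r 0.95 and Spearman rho 0.94, a description across genes that share these libraries, and 41 of 45 (91.1%) had the same sign. Over all 12798 genes r was 0.64, rho 0.69 and the same sign was found for 77.5%.

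High in both libraries were Ndufa10, an accessory subunit of the membrane arm with a nucleoside kinase fold (1.33 and 0.86 on the log2 scale), Ndufab1 (1.16 and 1.01), Ndufc2 (1.18 and 1.00) and Ndufs5 (0.83 and 0.96). Low in both were Ndufa2 (-1.13 and -1.18), Ndufb2 (-0.84 and -0.88) and Ndufa3 (-0.71 and -0.85). Members above 0.5 numbered 11 of 45 in the first library and 16 in the second, and those below -0.5 numbered 8 and 6, where 35.2% and 22.2% of all genes lay past 0.5 in either direction. A ratio within a library needs no scaling. Ndufa10 over Ndufa2 was 0.80 in mdx saline replicate 1 and 0.68 in mdx:Utrn+/- PB1046 replicate 3, and from 0.12 to 0.36 in the other 10. The ratio rests on 15133 of Ndufa10 and 9427 of Ndufa2 in the first library, and on 13089 and 9538 in the second.

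**Figure D5:**
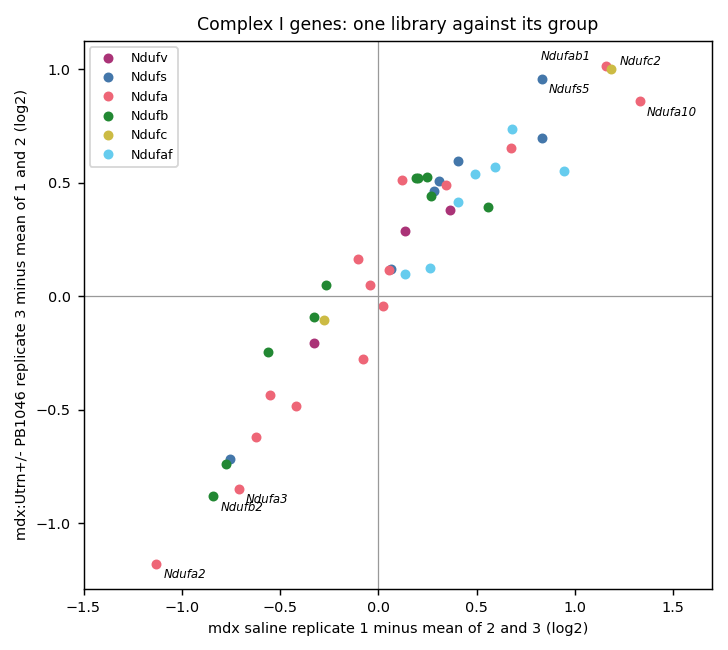
Log2 deviation of mdx saline replicate 1 from the mean of replicates 2 and 3 (horizontal) and of mdx:Utrn+/- PB1046 replicate 3 from the mean of replicates 1 and 2 (vertical), for 44 complex I genes coloured by subfamily. The points run along a diagonal from Ndufa2 (-1.13 and -1.18) to Ndufab1 and Ndufc2.

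These libraries were also among the 3 deepest (25458191 and 22546251 reads, with mdx:Utrn+/- saline replicate 3 at 25013288) and the 3 with the least ribosomal precursor Rn45s. Rn45s had 1041 and 1240 scaled TPM in them and 1943 in mdx:Utrn+/- saline replicate 3, against 6989 to 48900 in the other 9. The deviation rose with transcript length over the members, with Spearman rho 0.44 in the first and 0.30 in the second. The part of depth, ribosomal carryover or length in the pattern was not tested. Single members depended on mdx saline replicate 1. Without it the PB1046 difference of Ndufab1 in mdx went from -0.25 to 0.14 and that of Ndufc2 from -0.37 to 0.03. That of Ndufaf7 went from -0.13 to 0.18, while the median over members was -0.41. Leaving out a library removes all that is particular to it, and the part of the pattern in these turns was not tested.

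The authors' deposited table of comparisons, computed by them with another tool, also called no complex I gene. In the authors' deposited table the smallest false discovery rate of a member was 0.732 over the 6 pairwise comparisons, and 0 genes of the whole table were under 0.05. For mdx saline minus mdx PB1046 the authors' deposited table gives Ndufb9 a log2 fold change of 0.71 and Ndufa4l2 -0.92, with 42 of 45 members above 0. For mdx PB1046 minus mdx:Utrn+/- PB1046 it gives 44 of 45 below 0 in the authors' deposited table. The locus 1810043H04Rik, the assembly factor Ndufaf8, was 137 ± 20.4 scaled TPM in mdx saline and 123 ± 27.5 in mdx PB1046, and 187 ± 23.3 and 159 ± 30.6 in mdx:Utrn+/- (n = 3 each). RefSeq lists further copies related to Ndufab1, Ndufa12 and Ndufs6, and how reads shared with such copies were counted is not given in the sources used here, so the levels of these 3 genes are less certain.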

How the data were processed

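Poly-A RNA of isolated mouse cardiomyocytes was sequenced in 12 libraries, and groups and replicate numbers were read from the labels. Although its name says raw counts, the table deposited by the authors holds TPM, since no library's values are whole and each has the same sum. The authors' deposited comparisons give a log2 fold change, a log2 CPM, a likelihood ratio score and a p-value with its false discovery rate, per the file headers. Set against the TPM (r at least 0.94), a positive value there is higher in the group named second. The aligner and counter are not given, and the submitters' processing notes name edgeR and mm10. Coordinates are 1-based (mm10, deposited starts plus 1). Whole reads were recovered from the TPM steps (99.97% of 18530 genes within 0.02 reads, tolerance 0.1) and used for depth and limma-voom.

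Since the unit is TPM, limma 3.58.1 (R 4.3.3) was used in place of a count test. TPM divided by trimmed-mean factors (30% of log ratios and 5% of levels trimmed) entered as log2(value + 1), so fold changes of low genes are understated. The 12798 genes reaching 1 TPM in 3 or more libraries were fitted with 1 mean per group over all 12 libraries and moderated variances (trend, robust), with an adjusted p of 0.05 as threshold. Scripts were tested on simulated data. Alternatives were other pseudocounts (0.1 and 5), no filter, no scaling, limma-voom, a replicate block, trends over length and abundance removed (lowess span 0.3), covariate terms and leaving out each library. Removal of the length trend alone was chosen after seeing the data.

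The members, gene lists and promoter words were chosen with earlier results of these data known. Named are, per comparison, subfamily extremes, members with the smallest p, core subunits, Ndufa4, Ndufa4l2 and Ndufab1. For PB1046 in mdx:Utrn+/- and genotype under saline, subfamilies are mostly given by range. Of the lists, Adgre1, Coa1, Sdhaf3 and Sdhaf4 were not analysed here. Promoter sequences are from RefSeq. A single member counts in all totals but is not reported here by name and is left out of the figures.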

Additional observations from a re-analysis of the deposited data

How the results depend on the processing

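No member passed the adjusted threshold in any comparison under any of 22 alternatives (smallest limma adjusted p of a member 0.363). Of 1210 recomputed values 1173 kept their direction and side, a count that overstates stability. It includes counts of members past the threshold, 0 throughout. Leaving out a library of a group outside a pairwise comparison cannot change the fitted difference. A median counted as kept if its sign stayed and it moved by less than 0.307. For PB1046 in mdx the median over members stayed negative in all 22 alternatives, from -0.65 to -0.23 when a library was left out. For PB1046 in mdx:Utrn+/- the median of -0.07 turned to 0.11 without scaling, 0.07 with length and abundance trends removed, 0.03 with the length trend removed, and 0.20 with the endothelial score as a term, and ran from -0.16 to 0.14 when a library was left out. The genotype median under saline turned to -0.12 without scaling, -0.072 with both trends removed and -0.15 with the endothelial score. Without scaling the median over all genes was 0.15 for PB1046 in mdx:Utrn+/- and -0.20 for genotype under saline. The genotype median under PB1046 moved to 0.16 with both trends removed, and the difference of responses to 0.61 with the endothelial score. The cause was not tested.

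Single members also turned sign. For PB1046 in mdx these were Ndufaf7 (0.022 without scaling, 0.018 with an Rn45s term), Ndufb2 (0.054 without scaling, 0.31 with both trends removed, 0.12 with the length trend removed), Ndufab1 (0.014 with both trends removed, 0.12 with an Rn45s term) and Ndufc1 (0.036 with both trends removed). With a library left out Ndufab1 ran from -0.50 to 0.14, Ndufaf7 from -0.35 to 0.18, Ndufb2 from -0.52 to 0.14, Ndufc2 from -0.71 to 0.026 and Ndufs1 from -0.17 to 0.37. For genotype under PB1046 these were Ndufaf5 (-0.043 without scaling), Ndufb2 (-0.062 with both trends removed) and Ndufs1 (-0.14 without scaling, -0.018 with both trends removed, -0.011 with an Rn45s term). With a library left out Ndufaf5 ran from -0.06 to 0.37 and Ndufs1 from -0.15 to 0.36.

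Replicate numbers did not pair the libraries: 5 of 18 pairs with the same number had deviations correlated over 0.1 (r from -0.443 to 0.491), and 3 of 12 libraries correlated best with their own number. With the replicate block 0 members passed the threshold in any comparison, and medians were as without it. Depth was lowest for Ndufa4l2, with 32 reads in its lowest library, while the other members had 80 reads or more per library. The share of counting error in the spread between libraries was not tested.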
